A study of Arabidopsis thaliana with 54 samples.

Results

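miR828 and miR858 are plant microRNAs whose known targets are mRNAs of MYB transcription factors, many of which switch on flavonoid and anthocyanin genes. All rows of the count table named ath-miR828, or ath-miR858 with a letter, were taken: ath-miR828, ath-miR858a and ath-miR858b. These are 3 of the 286 microRNA rows, in a table of 223651 rows beside a row named genome. The libraries are small RNA from whole Arabidopsis thaliana seedlings (shoots and roots together) of the Columbia 0 genotype, with RNAs of up to about 40 nt selected on a gel. All seedlings grew for 10 days in 12 h light and 12 h dark after 48 h of dark stratification. On day 11 they were moved to long days (16 h light, 8 h dark), moved to short days (8 h light, 16 h dark) or kept in equinox days (12 h light, 12 h dark), and all were harvested on day 13. Each photoperiod was sampled 4, 8, 12, 16, 20 and 24 h after lights-on (Zeitgeber time, ZT), with replicates A, B and C, giving 18 libraries per photoperiod and 54 in all. Each library pools about 200 mg of seedling tissue. The labels do not say whether the replicates came from separate plates, and the p-values below cover variation among these libraries, which may be technical.

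Total counts per library ran from 13668254 to 23283160, but the genome row held 86.1% of them. Counts outside that row, on which levels are scaled here, ran from 1333843 to 3585724 with a median of 2324057. Levels are given as CPM, the usual depth-scaled count, on that total with TMM scaling factors. No pair of libraries held identical counts. On the first principal component 5 short-day libraries lay outside the range of all long-day and equinox-day libraries. They were ZT 4 B, ZT 12 C, ZT 16 B, ZT 20 A and ZT 24 C, and are called the libraries apart below. Only short-day libraries were screened by this rule, and a gap from the other short-day libraries was not tested. The differences of miR858a and miR858b and the counts of the pathway lists are also given without these 5. In whole seedlings, fewer cells that make a microRNA and less of it per cell cannot be told apart. No tissue marker was tested, since the members are small RNAs.

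In plants a microRNA guides an ARGONAUTE protein to mRNAs that match it over nearly its whole length, and the mRNA is cut or its translation is blocked. miR858 is known to act on MYB11, MYB12 and MYB111, which activate the flavonol branch, and on other R2R3-MYB mRNAs. miR828 is known to cut MYB113, an activator of anthocyanin genes, and to start the production of phased small RNAs from the noncoding TAS4 transcript, one of which acts on anthocyanin MYBs in turn. Light is known to promote flavonoid synthesis in seedlings.

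The mature sequences are shown because their overlap decides how far the miR858 rows can be told apart. They were read from the RefSeq annotation and genome TAIR10.1, and the capitals mark the seed (bases 2 to 8).
ath-miR828: uCUUGCUUaaaugaguauucca
ath-miR858a: uUUCGUUGucuguucgaccuu
ath-miR858b: uUCGUUGUcuguucgaccuug
miR828 has 22 nt, the length class known to start phased small RNA production, and comes from chr4:13847020-13847041 on the plus strand in the locus AT4G27765. miR858a has 21 nt and comes from chr1:26773695-26773715 on the minus strand (AT1G71002), and miR858b has 21 nt and comes from chr1:26772907-26772927 on the plus strand (AT1G09213). miR858b is miR858a moved by 1 base, so that they share a run of 20 nt while their seeds are offset. miR828 is unrelated to both: its best ungapped alignment with miR858a holds 9 identical bases.

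MIR858b and MIR858a are neighbours that face each other, 603 bases apart with no other annotated gene between them. MIR858b overlaps AT1G09207 on the opposite strand, while no annotated gene overlaps MIR858a or MIR828. The MIR858a precursor (chr1:26773539-26773725, minus strand) is shown with its mature sequence in capitals, bases 11 to 31 of 187.
ath-MIR858a: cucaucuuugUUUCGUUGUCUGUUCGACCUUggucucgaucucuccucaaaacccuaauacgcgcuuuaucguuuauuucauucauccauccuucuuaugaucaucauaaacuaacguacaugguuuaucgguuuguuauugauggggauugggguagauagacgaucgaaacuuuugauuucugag
The base after the capitals is g, so the whole miR858b sequence also lies in this precursor, at chr1:26773694-26773714 on the minus strand. A count in the miR858b row can therefore come from either locus, whereas the miR858a sequence occurs once in the genome, inside MIR858a. The sum of the miR858a and miR858b counts is given beside the separate rows for this reason.

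Sites for the members were searched in 36561 genes of TAIR10.1 (longest transcript of each), with 1 penalty point per mismatch, 0.5 per G:U pair, doubled at microRNA bases 2 to 13, and a limit of 4. In the sites below, capitals mark bases that form Watson-Crick pairs with the microRNA.
MYB12 (flavonol activator, for miR858a): cAGGgaGAACAGACAACGAAA
MYB111 (flavonol activator, for miR858a): cAGGaaGAACAGACAACGAAA
MYB11 (flavonol activator, for miR858a): cgGGaaGAACAGACAACGAAA
TT2 (proanthocyanidin activator of the seed coat, for miR858a): cAGGcCGAACAGACAAtGAAA
TAS4 transcript (AT3G25795, for miR828): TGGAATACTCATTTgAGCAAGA
MYB113 (anthocyanin activator, for miR828): TGGAAcACTCATTTgAGtAAGA
The MYB12 site lies at chr2:19478416-19478436 on the plus strand, the MYB111 site at chr5:19999866-19999886 on the minus strand and the MYB113 site at chr1:24754173-24754194 on the plus strand, each in a coding exon. A gene was counted as a MYB where its symbol or a synonym in RefSeq is MYB with a number; TT2 counts through its synonym. miR858a had sites in 14 genes, all 14 of them MYB genes (100%), and miR858b in 23 genes, 21 of them MYB genes (91.3%), while 132 of all genes searched (0.361%) are MYB genes by this rule. The other miR858b genes were MYBL2, which has MYB in its symbol but falls outside the rule, a MYB-like repressor of anthocyanin genes, and CLC-B, a chloride channel gene. The members share 13 of these genes, which are 92.9% of those of miR858a and 56.5% of those of miR858b. The miR858a sites scored 3.0 to 4.0, near the limit. At a stricter limit of 2.5, miR858a had sites in 0 genes and miR858b in 1 gene, MYB83.

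Beyond the flavonol and proanthocyanidin regulators, the shared miR858 sites included MYB20, MYB42, MYB63 and MYB83, regulators of lignin or secondary walls. Of the 24 genes with a site for either miR858, MYB93 was the sole one reached by miR858a alone, and 10 were reached by miR858b alone, among them MYB37 and MYB84, which act in axillary meristems. miR828 had sites in 4 genes, the best of them in TAS4 with a penalty of 1.0. MYB113 and MYB82, a regulator of trichomes, scored 3.0, and AT3G60980, annotated as a tetratricopeptide-repeat protein gene, scored 4.0. No gene had a site for both miR828 and a miR858. A sequence match is a description and does not show that a transcript was cut in these seedlings.

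miR858a and miR858b were counted in every library, and miR828 almost nowhere. miR858a had 1366 counts over the 54 libraries, between 5 and 45 per library with a median of 24.5, and miR858b had 999 counts, between 6 and 38 with a median of 18. By mean CPM they ranked 102 and 113 among the 149 microRNA rows that passed the filter on low counts. For miR858a, counting alone gives a coefficient of variation of 19.9% per library and the observed one was 36.5%.

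miR828 had 9 counts in all, in 8 of 54 libraries, and ranked 233 among the 286 microRNA rows. In long days it had 5 counts: 1 in ZT 4 B, 1 in ZT 4 C, 2 in ZT 8 A and 1 in ZT 24 C. In short days it had 1 count, in ZT 24 C. In equinox days it had 3 counts, 1 each in ZT 8 A, ZT 20 A and ZT 24 A. Most libraries of every photoperiod were thus at 0, and 3 counts, the limit that a count of 0 allows, are 1.25 CPM in the median library. Pooled over libraries, as summed counts over summed library totals without TMM factors, its level was 0.112 CPM in long days (exact Poisson 95% interval 0.0363 to 0.261), 0.0224 CPM in short days (0.000566 to 0.125) and 0.0701 CPM in equinox days (0.0145 to 0.205). These intervals, which cover counting error only, overlap. The mean differed by 0.09 CPM between long and short days (permutation p within time 0.221), by 0.05 CPM between long and equinox days (permutation p 0.40) and by -0.04 CPM between short and equinox days (permutation p 0.448). All 3 two-sided tests had a Benjamini-Hochberg adjusted p of 0.448, so that no difference in miR828 was detectable at this depth.

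miR858a was highest on average in long days and lowest in equinox days. It had a lowest, median and highest level of 6.61, 12.0 and 20.1 CPM in long days, of 5.0, 10.3 and 19.0 CPM in short days, and of 2.65, 7.93 and 14.7 CPM in equinox days. The ranges overlapped widely, and the means were 12.5 ± 3.87 CPM in long days, 10.3 ± 3.41 CPM in short days and 8.76 ± 3.44 CPM in equinox days (SD, n = 18 each). Summed counts were 537 in long days, 448 in short days and 381 in equinox days.

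**Figure D1:**
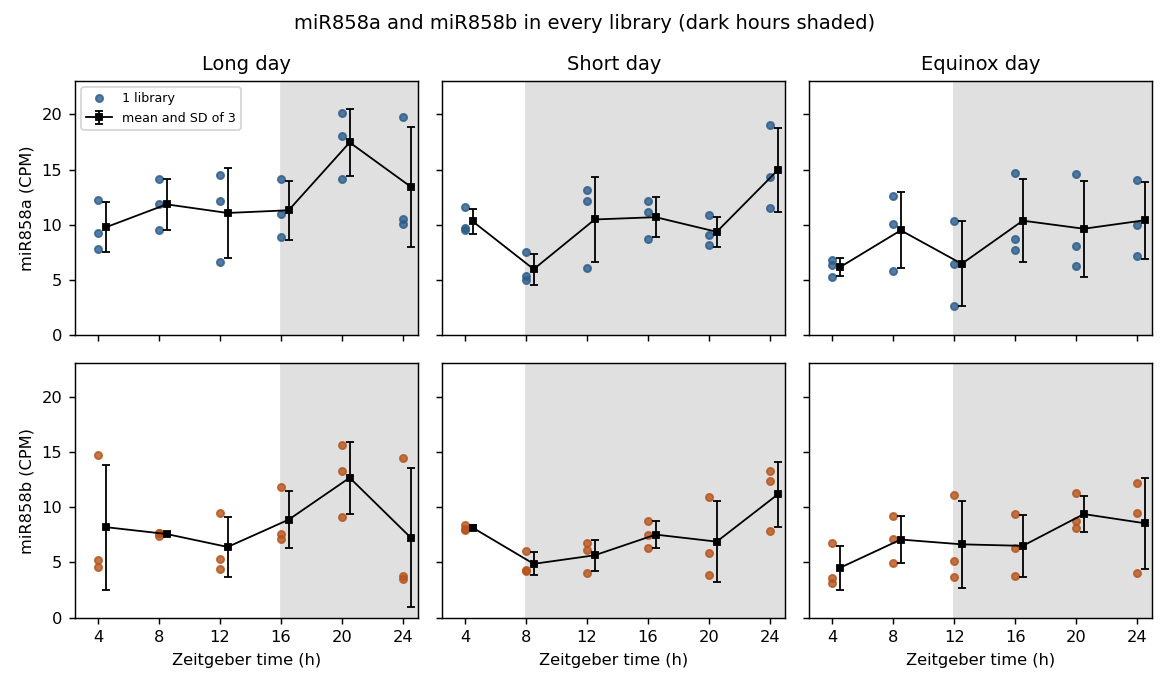
miR858a (upper row) and miR858b (lower row) in CPM against Zeitgeber time in hours, with 1 panel per photoperiod. Points are single libraries, squares with bars are the mean and SD of 3 libraries, and dark hours are shaded. The highest mean of both lies in long days at ZT 20 (17.4 CPM for miR858a, 12.7 CPM for miR858b), and libraries of a group often differ by more than the group means do.

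In edgeR's quasi-likelihood fit over all 8869 features that passed the filter, miR858a was higher in long than in equinox days, with a log2 fold change of 0.51 ± 0.17 (SE, Benjamini-Hochberg adjusted p = 0.0324), and its mean was higher at 6 of 6 times. Of all features tested, 15.7% were called in that comparison and 8.66% were called higher in long days. Among microRNA rows 3 of 149 (2.01%) were called higher, while the median log2 fold change was -0.07 over all features and -0.16 over microRNAs. The difference between long and short days was 0.30 ± 0.17 (adjusted p = 0.186, higher at 4 of 6 times), in a comparison in which 25.2% of all features were called. It passed when microRNA rows were fitted alone (0.45, adjusted p = 0.00424), a fit that scales on microRNAs. That fit called 67 of 149 microRNA rows in this comparison in either direction, against 43 (28.9%) in the fit over all features. The difference between short and equinox days was 0.21 ± 0.17 (adjusted p = 0.360, higher at 4 of 6 times), with 32.8% of all features called. These comparisons share libraries, and the difference of the differences was not tested. Without the 5 short-day libraries that stood apart, the difference between long and equinox days was 0.51 (adjusted p = 0.0307) and that between long and short days 0.21 (adjusted p = 0.581), with that between short and equinox days at 0.31 (adjusted p = 0.250).

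miR858b followed the same order of means but no photoperiod difference passed the test. Its lowest, median and highest levels were 3.51, 7.62 and 15.6 CPM in long days, 3.89, 7.12 and 13.3 CPM in short days, and 3.16, 6.94 and 12.2 CPM in equinox days. The 3 ranges nearly coincide, with means of 8.49 ± 3.94 CPM in long days, 7.37 ± 2.72 CPM in short days and 7.11 ± 2.94 CPM in equinox days (SD, n = 18 each). Its log2 fold change was 0.21 ± 0.20 for long minus short days (edgeR adjusted p = 0.463), 0.24 ± 0.20 for long minus equinox days (adjusted p = 0.458) and 0.03 ± 0.20 for short minus equinox days (adjusted p = 0.926), a value whose sign turned in some fits with a library left out. Without the library Long day ZT 24 C alone, long minus short days was 0.03 (adjusted p = 0.934) and long minus equinox days 0.03 (adjusted p = 0.962). Without Long day ZT 4 B they were 0.06 and 0.13, and without Long day ZT 12 C or ZT 20 B long minus short days was 0.12 or 0.14. Long minus equinox days was 0.14 without Long day ZT 16 C, 0.12 without Equinox day ZT 24 B and 0.15 without Equinox day ZT 4 C. Without the 5 short-day libraries that stood apart, the values were 0.20 for long minus short days (adjusted p = 0.671), 0.24 for long minus equinox days (adjusted p = 0.434) and 0.05 for short minus equinox days (adjusted p = 0.914). The 95% interval for long minus equinox days runs from -0.17 to 0.65, which takes in the value of miR858a, so the rows were not shown to differ in this respect. With miR858a and miR858b summed into 1 row, long minus equinox days gave 0.40 ± 0.17 (adjusted p = 0.0922) and dark minus light 0.43 ± 0.14 (adjusted p = 0.0440).

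The miR858a row held more counts than the miR858b row in 46 of 54 libraries. Its share of their joint counts, pooled over all libraries, was 57.8% (exact binomial 95% interval 55.7% to 59.8%). This interval covers counting error only, and single libraries ran from 34.7% to 75%. Per library the share averaged 60.6 ± 9.91% in long days, 58.4 ± 5.76% in short days and 55.3 ± 8.57% in equinox days (SD, n = 18 each). The differences were 2.25, 5.37 and 3.12 percentage points for long minus short, long minus equinox and short minus equinox days. Their permutation p-values were 0.423, 0.105 and 0.231, or 0.423, 0.316 and 0.346 after adjustment. No difference in the share was thus detected. Over the 54 libraries the log2 CPM of both rows had a Spearman correlation of 0.60 and a Pearson correlation of 0.63. They come from the same libraries and may in part hold reads of the same locus, so these coefficients are a description only.

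Across the day, the group means of miR858a spread more widely in long and short days than in equinox days, but no test of time passed. In long days the libraries at ZT 20, after dark, had 20.1, 18.1 and 14.2 CPM, from 41, 44 and 31 counts. At the same time the short-day libraries had 9.04, 10.9 and 8.21 CPM and the equinox-day libraries 14.6, 8.12 and 6.26 CPM. The long-day libraries thus lay above every short-day library and overlapped with 1 equinox-day library. In short days the group with the lowest mean was ZT 8, at lights-off, with 7.58, 5.0 and 5.38 CPM. The group with the highest mean was ZT 24, at the end of the night, with 19.0, 14.4 and 11.5 CPM. These short-day groups do not overlap with each other, but each overlaps with ZT 12, which had 13.2, 12.2 and 6.11 CPM. In equinox days ZT 4 had 6.36, 5.29 and 6.84 CPM and ZT 12, again at lights-off, had 10.3, 6.48 and 2.65 CPM, whereas ZT 16 in the dark had 8.69, 7.74 and 14.7 CPM. The joint edgeR test over the 6 times gave adjusted p-values of 0.656 in long days, 0.559 in short days and 0.642 in equinox days, with 13.3%, 4.00% and 5.20% of all features called, and the photoperiod-by-time interaction gave 0.607, with 5.92% called. For miR858b these adjusted p-values were 0.664, 0.760 and 0.737 by photoperiod and 0.759 for the interaction.

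Ordered by mean, the 18 groups of miR858a began with long days at ZT 20 (17.4 ± 3.03 CPM, SD, n = 3), short days at ZT 24 (14.9 ± 3.79 CPM) and long days at ZT 24 (13.4 ± 5.44 CPM), all sampled in the dark. They ended with equinox days at ZT 12 (6.48 ± 3.83 CPM), equinox days at ZT 4 (6.16 ± 0.795 CPM) and short days at ZT 8 (5.99 ± 1.39 CPM), all sampled in the light or at its end. Of the 17 gaps between neighbours in this order, 16 were smaller than both SDs. The other was the step of 2.89 CPM between short days at ZT 20 (9.37 ± 1.36 CPM) and equinox days at ZT 12. That step exceeded the SD of the former group but not that of the latter (3.83 CPM), so no gap exceeded both SDs. Sorting by mean itself keeps such gaps small. For miR858b the order began with long days at ZT 20 (12.7 ± 3.27 CPM) and short days at ZT 24 (11.2 ± 2.94 CPM) and ended with short days at ZT 8 (4.88 ± 1.03 CPM) and equinox days at ZT 4 (4.51 ± 1.99 CPM). The first pair of groups and the last pair were thus high and low for both rows, though in the summed row, too, no test of time passed (adjusted p of 0.638 in long days, 0.556 in short days and 0.651 in equinox days).

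Of the 18 comparisons of photoperiods at a single time, edgeR called 0 for miR858a, with 3 at an unadjusted p under 0.05, and DESeq2 called 0. The largest was long minus short days at ZT 8, at 0.98 ± 0.42 (edgeR adjusted p = 0.299), when both groups were in the light or at its end and 1.36% of all features were called. Long minus short days at ZT 20 followed at 0.89 ± 0.41 (adjusted p = 0.329, 1.23% of all features called) and long minus equinox days at ZT 20 at 0.84 ± 0.41 (adjusted p = 0.605, 1.60% of all features called). For miR858b edgeR called 0, with 0 at an unadjusted p under 0.05, and DESeq2 called 0.

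miR858a was higher in libraries taken in the dark than in those taken in the light. The lowest, median and highest levels were 6.11, 11.2 and 20.1 CPM in the 27 dark libraries, against 2.65, 9.54 and 14.5 CPM in the 27 light libraries, a time at lights-off being counted as light. Within long days the medians were 16.1 CPM in the dark (n = 6) and 11.4 CPM in the light (n = 12), within short days 11.3 CPM in the dark (n = 12) and 8.57 CPM in the light (n = 6), and within equinox days 8.69 CPM in the dark (n = 9) and 6.48 CPM in the light (n = 9). Dark libraries thus had the higher median in every photoperiod, with ranges that overlap in each. Averaged over the photoperiods, the log2 fold change of dark over light was 0.49 ± 0.14 (edgeR adjusted p = 0.0192). Of all features 9.11% were called in this comparison and 1.69% were called higher in the dark. Of the microRNA rows 10 of 149 (6.71%) were called higher in the dark, and the median log2 fold change was 0.10 over all features and 0.18 over microRNAs.

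**Figure D2:**
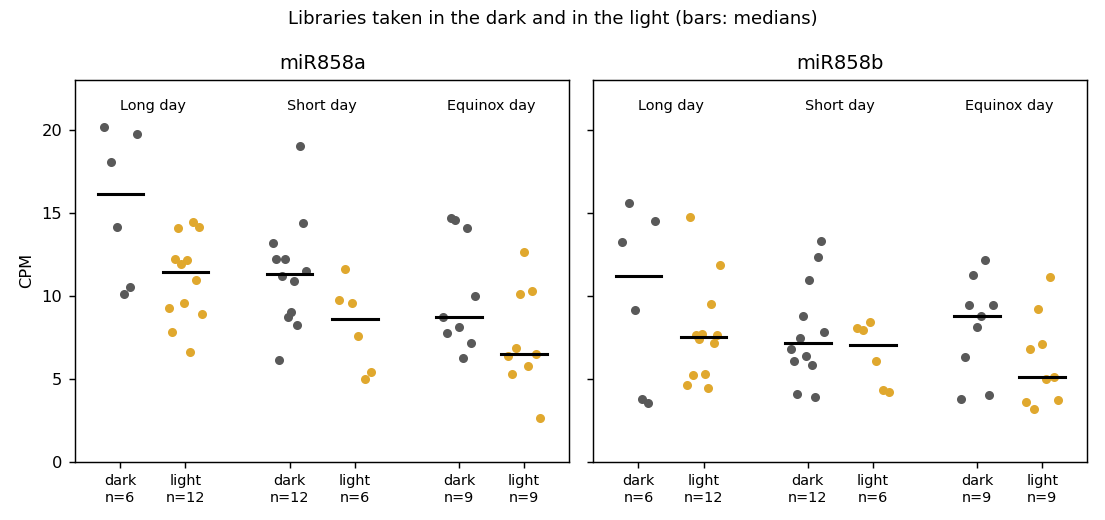
miR858a (left) and miR858b (right) in CPM in libraries taken in the dark (grey) and in the light (yellow), by photoperiod. Each point is 1 library, black bars are medians, and n counts the libraries. The dark median of miR858a is higher in each photoperiod (16.1 CPM in the dark against 11.4 CPM in the light in long days, 11.3 in the dark against 8.57 in the light in short days, and 8.69 in the dark against 6.48 in the light in equinox days), with overlapping points.

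The log2 fold change of dark over light was 0.48 ± 0.25 within long days (edgeR adjusted p = 0.189), 0.51 ± 0.26 within short days (adjusted p = 0.452) and 0.48 ± 0.24 within equinox days (adjusted p = 0.385), with 14.4%, 4.03% and 4.66% of all features called. None of these passed on its own. Time and light cannot be separated fully, since ZT 20 and 24 were dark and ZT 4 and 8 light in every photoperiod. ZT 12 and ZT 16 are the times at which the light state differed. At ZT 12 the means were 11.1 CPM in long days (light), 10.5 CPM in short days (dark) and 6.48 CPM in equinox days (light, at lights-off), and at ZT 16 they were 11.3 CPM in long days (light, at lights-off), 10.7 CPM in short days (dark) and 10.4 CPM in equinox days (dark). At these times the dark groups were not consistently the higher ones. For miR858b, dark over light was 0.33 ± 0.17 (edgeR adjusted p = 0.282), with 8.12 CPM in the median dark library and 7.09 CPM in the median light library. It was 0.17 without Long day ZT 24 C alone (adjusted p = 0.679) and 0.28 without the 5 short-day libraries apart (adjusted p = 0.440). miR828 had 4 counts in 4 dark libraries and 5 counts in 4 light libraries.

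**Figure D3:**
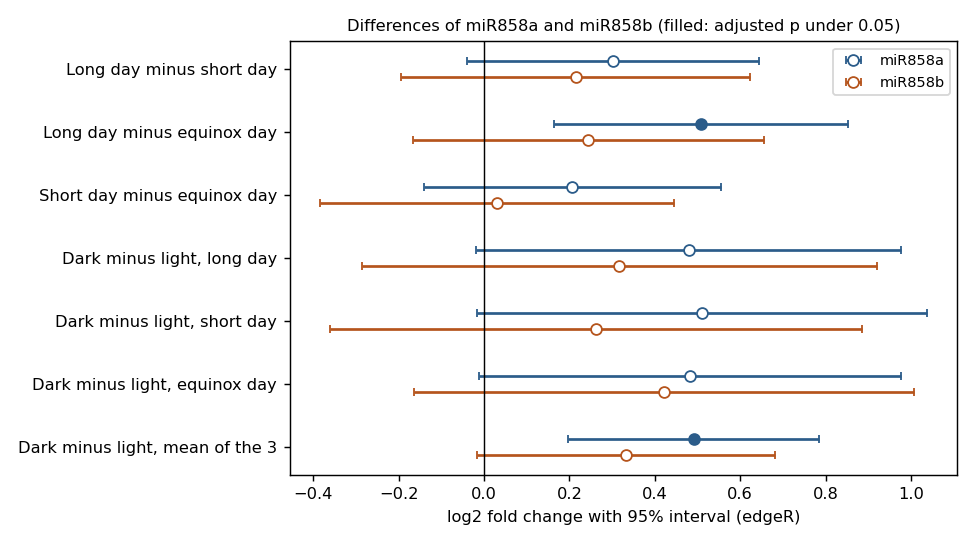
log2 fold changes of miR858a (blue) and miR858b (orange) from edgeR, first-named condition over the second, with 95% intervals. Filled points passed an adjusted p of 0.05. All 14 points lie at or above 0, and those filled are miR858a for long minus equinox days (0.51) and for dark minus light over the photoperiods (0.49).

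Both calls on miR858a lie near the threshold and depend on the fit. Long minus equinox days kept its sign under every setting tried. It lost its call without TMM factors (0.49, adjusted p = 0.0661), with no filter on low counts (0.56, adjusted p = 0.964) and when Long day ZT 8 C served as the TMM reference library (0.45, adjusted p = 0.0685), and kept it with Long day ZT 24 A as that library (0.51, adjusted p = 0.0307). Without a single library the value ran from 0.39 to 0.60 and the call was lost in 30 of 54 fits, with edgeR adjusted p-values of up to 0.136. Each of the 54 fits also kept more features than the full fit (9644 to 9976 against 8869), so the rows adjusted over changed with the library. In 23 of the 30 fits without the call edgeR itself took Long day ZT 8 C as the TMM reference. The libraries concerned were, of long days, ZT 4 C, ZT 8 A and B, ZT 12 B and C, ZT 16 A, B and C and ZT 24 B and C. Of short days they were ZT 4 A and C, ZT 8 C, ZT 12 A and C, ZT 16 C, ZT 20 A and C and ZT 24 A, which hold no library of the comparison itself. Of equinox days they were ZT 4 A, B and C, ZT 8 C, ZT 12 C, ZT 16 A and B, ZT 20 B and C and ZT 24 B and C.

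Dark minus light also kept its sign under every setting tried. It lost its call on totals that include the genome row (0.40, adjusted p = 0.107) and with no filter (0.46, adjusted p = 1.00). The 54 fits without a single library again kept 9644 to 9976 features. Dark minus light lost its call in 10 of 54, with values from 0.41 to 0.47 and edgeR adjusted p-values from 0.0507 to 0.0776. Those libraries were Long day ZT 20 A, ZT 20 B and ZT 24 C, Short day ZT 8 B, ZT 8 C and ZT 20 B, and Equinox day ZT 8 C, ZT 12 C, ZT 16 C and ZT 20 A. With the times at lights-off left out it was 0.34 (adjusted p = 0.346); the groups left out included the low ones at lights-off, short days at ZT 8 and equinox days at ZT 12. With ZT 20 and 24 set against ZT 4 and 8 alone it was 0.50 (adjusted p = 0.0658). Leaving out the 5 short-day libraries that stood apart gave 0.50 (adjusted p = 0.0255).

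**Figure D4:**
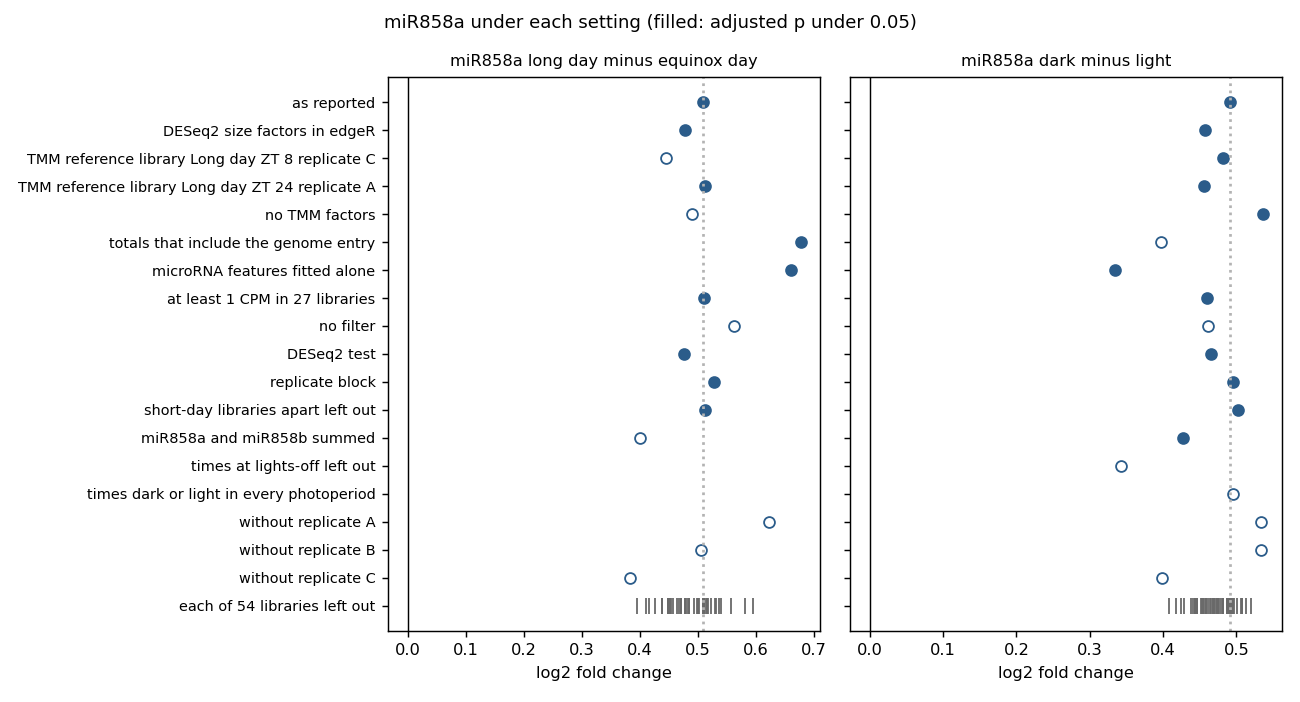
log2 fold change of miR858a for long minus equinox days (left) and dark minus light (right) under each setting, with filled points where the adjusted p was under 0.05; the grey dotted line is the value reported. The lowest row marks each of the 54 fits with 1 library left out. All values are above 0, from 0.38 to 0.68 on the left and from 0.33 to 0.54 on the right, while several points are open; the rows on times apply to dark minus light alone.

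Other microRNAs of the same pathways were set beside the members. The first list was miR159 and miR319, which act on GAMYB-type MYB and on TCP transcripts; all 6 of its rows passed the filter. In long minus short days edgeR called 1 of 6, higher, and DESeq2 called 3, beside 10.8% of all features and 8.05% of microRNA rows called higher by edgeR. In long minus equinox days edgeR called 1 of 6, higher, and DESeq2 called 2, beside 8.66% of all features and 2.01% of microRNA rows called higher by edgeR. miR159b-5p, the strand opposite the guide, was higher in long days, with 17.1 ± 8.97 CPM against 8.63 ± 4.45 CPM in short days (log2 fold change 0.95 ± 0.20, edgeR adjusted p = 0.000619) and 10.2 ± 5.77 CPM in equinox days (0.76 ± 0.20, adjusted p = 0.00615; SD, n = 18 each). In short minus equinox days, where 32.8% of all features and 19.5% of microRNA rows were called, edgeR called 0 of 6, with 1 at an unadjusted p under 0.05, and DESeq2 called 0; the most abundant rows, miR159a and miR159b-3p, stood at 0.01 ± 0.16 (adjusted p = 0.967) and -0.17 ± 0.17 (adjusted p = 0.454). In the dark 3 of 6 rows were higher by edgeR, and 3 were called by DESeq2, beside 1.69% of all features and 6.71% of microRNA rows called higher by edgeR. Of these, miR159b-3p had 3101 ± 983 CPM in dark and 2243 ± 794 CPM in light libraries (0.51 ± 0.14, adjusted p = 0.0118), miR159a had 3206 ± 1040 CPM in dark and 2295 ± 830 CPM in light libraries (0.48 ± 0.14, adjusted p = 0.0154), and miR159c had 18.8 ± 9.28 CPM in dark and 12.1 ± 6.16 CPM in light libraries (0.59 ± 0.18, adjusted p = 0.0292; 0.53 and adjusted p = 0.0608 without the 5 short-day libraries apart). These dark-over-light values are close in size to that of miR858a, but miR159a, miR159b-3p and miR159c are near-identical in sequence, so their counts may be split between them. The other 3 rows of the list went the other way and were not called by edgeR. They were miR159b-5p (-0.41 ± 0.17, adjusted p = 0.157), the joint miR319a and b row (-0.14 ± 0.12, adjusted p = 0.577) and miR319c (-0.15 ± 0.13, adjusted p = 0.582). The list's median log2 fold change for dark over light, 0.17, lies between these groups of rows. It was 0.18 over microRNA rows and 0.10 over all features. Without the 5 short-day libraries apart edgeR called 2 of 6 rows between dark and light, each higher in the dark, and 900 of all features. The filter was applied anew in that fit. The number of features tested in it is not given here, so these counts stand without a share. Between photoperiods edgeR then called the same number of rows as before (1, 1 and 0). The share of all features that DESeq2 called is not given for this list or the lists below, so its counts stand without a background.

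The second list was miR156, miR157 and miR778, of which miR156 is known to raise anthocyanin through its SPL targets; 12 of its 14 rows passed the filter. In long minus short days edgeR called 4 of 12 lower and 0 higher, beside 14.4% of all features and 20.8% of microRNA rows called lower, and DESeq2 called 7 of 12. The rows lower by edgeR were the joint row of the miR156a to f guide strands (-0.56 ± 0.15, edgeR adjusted p = 0.00582), miR156b-3p (-0.57 ± 0.17, adjusted p = 0.0132), miR156f-3p (-0.76 ± 0.26, adjusted p = 0.0280) and miR156c-3p (-0.38 ± 0.14, adjusted p = 0.0401). The median of the list was -0.36, against -0.17 over microRNA rows and -0.02 over all features. In long minus equinox days edgeR called 1 of 12, lower, and DESeq2 called 2, beside 7.01% of all features and 5.37% of microRNA rows called lower by edgeR. The row was miR156j, at 3.97 ± 2.54 CPM in long days against 6.51 ± 3.41 CPM in equinox days (-0.70 ± 0.23, adjusted p = 0.0324). The joint row of miR157a, b and c guide strands was the 1 row of 12 called by edgeR between dark and light, and DESeq2 called 1. It was lower in the dark, at 252 ± 93.8 CPM against 377 ± 144 CPM in the light (-0.68 ± 0.14, adjusted p = 0.000191), beside 7.42% of all features and 7.38% of microRNA rows called lower in the dark. In short minus equinox days, with 32.8% of all features called, edgeR called 0 of 12, with 2 at an unadjusted p under 0.05, and DESeq2 called 2; the most abundant rows, the joint miR156 guide row and the joint miR157a and b-3p row, stood at 0.15 ± 0.15 (adjusted p = 0.465) and 0.10 ± 0.15 (adjusted p = 0.632). Without the 5 short-day libraries apart edgeR called 6 of 12 in long minus short days, all lower, the 4 above among them. Over all features 1062 were then called in that comparison, against 2231 with all libraries. As the number of features tested in that fit is not given, these counts stand without a share. In short minus equinox days edgeR called 2 of 12 higher, namely miR156b-3p (0.57, adjusted p = 0.0178) and miR156c-3p (0.45, adjusted p = 0.0342). There 2030 of all features were called, again without a share, against 2909 with all libraries.

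The third list was miR173 and miR390, which start phased small RNAs from TAS1, TAS2 and TAS3 as miR828 does from TAS4; 4 of its 5 rows passed. In long minus short days edgeR called 3 of 4 and DESeq2 3, beside 25.2% of all features and 28.9% of microRNA rows called by edgeR. There miR173-5p was lower (94.1 ± 33.1 CPM in long days, 176 ± 79.1 CPM in short days, -0.86 ± 0.20, edgeR adjusted p = 0.00171), as was the joint miR390a and b guide row (-0.61 ± 0.17, adjusted p = 0.00599), while miR390b-3p was higher (0.81 ± 0.18, adjusted p = 0.000855). In short minus equinox days edgeR called 2 of 4 and DESeq2 3, beside 32.8% of all features: miR173-5p was higher (0.71 ± 0.20, adjusted p = 0.00635) and miR390b-3p lower (-0.53 ± 0.18, adjusted p = 0.0204). Without the 5 short-day libraries apart, edgeR again called these 3 rows in long minus short days. Over all features it called 1062 in that comparison and 2030 in short minus equinox days, with no share given for this fit. In short minus equinox days miR390b-3p was then not called (-0.27, adjusted p = 0.303), while miR173-5p (0.77, adjusted p = 0.00722) and the joint miR390a and b guide row (0.56, adjusted p = 0.0170) were higher. In long minus equinox days, with 15.7% of all features and 7.38% of microRNA rows called, edgeR called 0 of 4, with 1 at an unadjusted p under 0.05, and DESeq2 called 1; the most abundant rows, miR390a-3p and miR173-5p, stood at -0.35 ± 0.15 (adjusted p = 0.102) and -0.15 ± 0.20 (adjusted p = 0.678). In dark minus light, with 9.11% of all features called, edgeR called 0 of 4, with 0 at an unadjusted p under 0.05, and DESeq2 called 0; the same rows stood at 0.05 ± 0.12 (adjusted p = 0.877) and 0.32 ± 0.17 (adjusted p = 0.306).

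Over the 18 group means of log2 CPM, the microRNA rows whose pattern was most like that of miR858a, out of 148, were miR398a-3p (Spearman 0.58, Pearson 0.62), miR869.2 (0.57, 0.55), miR858b (0.57, 0.75), miR408-5p (0.54, 0.72) and miR408-3p (0.53, 0.65). miR398 and miR408 are among the microRNAs of copper economy, which act on mRNAs of copper proteins. For miR858b the nearest were the joint miR398b and c-5p row (0.70, 0.69), miR408-5p (0.62, 0.72), miR160a-3p (0.59, 0.52), miR829-3p.1 (0.59, 0.48) and miR858a. The least alike were miR845a (-0.48, -0.57) and miR825 (-0.47, -0.49) for miR858a, and miR157d (-0.37, -0.35) and miR850 (-0.36, -0.40) for miR858b. The means share libraries and scaling, so the coefficients describe these groups and carry no test.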

How the data were processed

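The deposited table holds whole-number read counts per small RNA sequence feature for 54 libraries, made by the authors with no normalization evident in the values. Cutadapt 3.4, Bowtie2 2.5.1 and SAMtools are named, per the submitters' processing notes; their settings, the genome build and the assignment of reads with several origins were not given in the sources used here. Levels (CPM) are counts per library total, TMM-scaled. The row named genome (86.1% of counts) names no feature and stayed out of library totals and tests.

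Features were kept with edgeR 4.0.16's filterByExpr (count minimum 10, total minimum 15), which left 8869, and scaled by TMM. One quasi-likelihood model with a coefficient for each of the 18 groups was fitted in R 4.3.3, with Benjamini-Hochberg adjustment over all features tested and a threshold of 0.05. miR828, below the filter, was tested by 100000 within-time permutations. DESeq2 1.42.0, other scalings and filters, a replicate block and left-out libraries were alternatives. The fit was also run on simulated data with larger changes than those called for miR858a, so that run does not bear on those calls. Every member is named; of each pathway list up to 4 called rows per comparison are named, or where none was called the 2 most abundant. Members and lists were chosen with earlier results of these data known. Sequences and sites come from RefSeq TAIR10.1, matched by name for 3 of 3 members.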

Additional observations from a re-analysis of the deposited data

How the results depend on the processing

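For miR858a, the time tests, the interaction, short minus equinox days and the single-time comparisons stayed on their side of the threshold under every alternative. Long minus short days did so except when microRNA rows were fitted alone (0.45, edgeR adjusted p = 0.00424), where 67 of 149 microRNA rows were called. Long minus equinox days, 0.51 with all libraries, fell short without TMM factors (0.49), with no filter (0.56, adjusted over far more rows), with Long day ZT 8 C as TMM reference (0.45) and with miR858a and miR858b summed (0.40); without 1 library or replicate letter it ran from 0.38 to 0.62. Dark minus light, 0.49, fell short on totals with the genome row (0.40), with no filter (0.46), without the times at lights-off (0.34) and with ZT 20 and 24 against ZT 4 and 8 (0.50); without 1 library or letter it ran from 0.40 to 0.53. Neither call passed without letter A, B or C, where 2 libraries a group remain: adjusted p was 0.0741, 0.265 and 0.233 for long minus equinox days and 0.0792, 0.170 and 0.216 for dark minus light. The choices of TMM reference, of summed rows, of the 5 libraries left out and of ZT 20 and 24 were made after seeing the data. For miR858b, short minus equinox days was -0.0031 with Long day ZT 8 C as TMM reference and ran from -0.084 to 0.17, and long minus short days from -0.16 to 0.49, without 1 library or letter; long minus equinox days ran from 0.01 to 0.47. For miR828, short minus equinox days ran from -0.094 to 0.038 CPM without a letter. Calls in the pathway lists numbered 16, against 25 with DESeq2 size factors, 30 with microRNA rows alone, 8 with no filter, 27 with DESeq2, 19 without the 5 libraries apart and 7 to 24 without 1 library or letter. Calls over all features in long minus short days fell to 1062 without the 5 libraries apart, against 2231. They were 1634 in long minus equinox days (1390 with all libraries), 2030 in short minus equinox days (2909) and 900 in dark minus light (808). With microRNA rows alone, 67, 17, 63 and 46 of 149 rows were called in these comparisons. Without 1 library or letter, calls over all features ran from 898 to 2568, 611 to 1632, 1255 to 3431 and 535 to 1019 in these comparisons. The filter was applied anew in each such fit, so these counts are not shares of the same features. For the other settings no such counts are given here, so their list counts stand without a background. The replicate block changed no call of miR858a or miR858b (0.53 for long minus equinox days, adjusted p = 0.0253); same-letter libraries did not deviate together (mean correlation -0.01 over 153 group pairs, from -0.61 to 0.68), so letters are not treated as pairs. The cause of these changes between settings was not tested. With a median of 24.5 miR858a counts per library, single-time differences had wide intervals. The largest, 0.98 for long minus short days at ZT 8, had a 95% interval of 0.13 to 1.83. miR828 was below detection in most libraries.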
